A study of Solanum lycopersicum with 21 samples.

Results

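The light-harvesting chlorophyll a/b binding proteins (the Lhca and Lhcb family) were followed in leaf RNA of tomato (Solanum lycopersicum, cultivar M82) through a set of 32 locus IDs given for the family. Of these, 19 were listed among the 35039 IDs of the deposited count table, and 18 had counts and entered the tests, out of 20373 IDs tested in all. The other 13 IDs, of which 8 lie on chromosome 2, 2 each on chromosomes 3 and 6, and 1 on chromosome 8, were not analysed here. Solyc01g105030.3 had 0 counts in all 21 libraries and was not tested. The filter on low counts removed no other member. Family sums, shares and counts of members below cover the 18 tested members only. No source used here pairs the IDs with gene names, so which ID is an Lhca and which an Lhcb was not read, and each member is called by its ID, in which the number after Solyc is the chromosome.

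Light-harvesting proteins are encoded in the nucleus, made in the cytosol and imported into the chloroplast, where they bind chlorophylls a and b and carotenoids in the thylakoid membrane. Lhcb proteins form the antenna of photosystem II and Lhca proteins that of photosystem I, and both pass the energy of absorbed light to the reaction centres. Their transcripts are among the most abundant of green leaves and are known to respond to light, the circadian clock, sugars, chloroplast state and leaf age. Strigolactones, the hormones varied in the study, are made from carotenoids.

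Each of 7 groups held 3 libraries. Line 6936, silenced for CCD7, a gene of strigolactone synthesis, was sampled under irrigation, after 1 drought followed by irrigation (recovery 1), and after 2 such droughts (recovery 2). Wild-type plants of the same cultivar were sprayed with GR24 5DS, a synthetic strigolactone analogue, at 5 µM 24 h before sampling, or were left unsprayed and sampled in the same 3 conditions as line 6936. Per the labels the plants were 3 weeks old, root tissues and exudates of the line are reduced in strigolactone by 70 to 80%, and a replicate is at least 3 fully expanded leaves from different plants. Neither the promoter of the silencing construct nor the strigolactone content of the leaves was given in the sources used here, and the line is a single one. The labels also give 5 plants per condition, too few for 3 replicates of separate plants, so replicates may share plants and p-values measure the spread between these libraries. Recovery groups carry the time labels 31 and 76 and irrigated groups the label 0, without a unit. Recovery and plant age or time of sampling therefore cannot be told apart. The sprayed group carries the label 24, and none of the 7 groups was sprayed without GR24. GR24 therefore cannot be told apart from spraying itself or from time of sampling. Line 6936 is called the depleted line below.

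Total counts per library lay between 19267602 and 35433511, so that a floor of 3 counts corresponds to 0.0847 to 0.156 CPM, the library-size unit used here, with library sizes scaled by TMM factors. Since IDs are unnamed, neither CCD7 nor leaf marker genes were checked. Over all genes, libraries of 2 groups stood apart from one another. Along principal component 1, which held 36.4% of the variance, recovery 1 replicate 16 of the depleted line lay at −11.1 and replicates 17 and 12 at −90.9 and −69.7, and the sprayed replicates 8, 9 and 11 lay at 43.8, −25.1 and −2.93. Family sums and counts of called members that rest on these libraries are given with and without them.

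The family made up a larger share of the leaf transcripts in the depleted line than in unsprayed wild type at each of the 3 conditions. Its 18 members held 2.81 to 7.51% of all counts in the 9 depleted libraries, and 1.47 to 3.00% in the 9 unsprayed wild-type libraries. Recovery 1 replicate 16 was the lowest depleted library, and it was the only one of the 9 that lay inside the wild-type range. Counts are not divided by transcript length here, so levels are compared between groups and not between members.

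Under irrigation the family sum was 59844, 95370 and 76514 CPM in the depleted line, against 33118, 27277 and 16879 CPM in wild type. The means were 77243 ± 17774 CPM and 25758 ± 8225 CPM (SD, n = 3 each), a ratio of 3.00 and a difference of 1.61 between the means of the log2 sums. At recovery 1 the sum was 26044, 82567 and 56639 CPM in the depleted line, against 16318, 20585 and 25366 CPM in wild type, a ratio of means of 2.65. The lowest depleted library, replicate 16, stood only just above the highest wild-type one. The difference between the means of the log2 sums was 1.28 with replicate 16 and 1.74 without it. At recovery 2 the sum was 72151, 83660 and 53265 CPM in the depleted line, against 18634, 15018 and 13998 CPM in wild type, a ratio of 4.39. In each of these 3 comparisons every depleted library lay above every wild-type library. Sums are given as descriptions, without a test. In RNA of whole leaves, fewer cells of a type and less RNA per cell cannot be told apart.

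The sprayed replicates differed widely among themselves. Their family sums were 15404, 58547 and 28595 CPM in replicates 8, 9 and 11, against 33118, 27277 and 16879 CPM in irrigated wild type. Replicate 8 lay below all irrigated wild-type libraries, replicate 9 above them, and replicate 11 among them. The means were 34182 ± 22107 CPM with spray and 25758 ± 8225 CPM without it (SD, n = 3 each), a difference smaller than the spread between the sprayed replicates. The difference between the means of the log2 sums was 0.25, and it was 0.72 without sprayed replicate 8, −0.24 without sprayed replicate 9, 0.46 without irrigated replicate 6 and −0.03 without irrigated replicate 14.

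**Figure D1:**
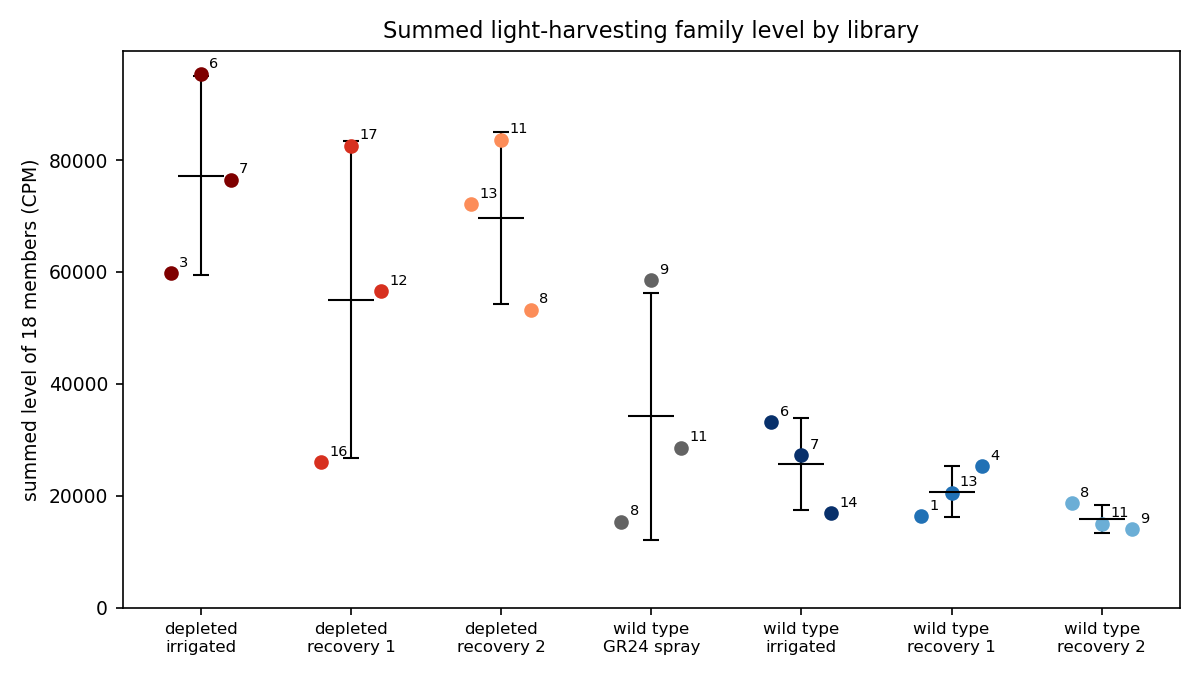
The family sum of the 18 members (y axis, CPM) is plotted as 1 point for each of the 21 libraries by group, with a horizontal mark for the mean and error bars for the SD of 3 libraries, and numbers beside points are replicate numbers. The depleted line lies above unsprayed wild type in each condition, and the sprayed replicates run from 15404 to 58547 CPM.

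Under irrigation, most members were higher in the depleted line and none was lower. Of 18 members, 14 were called higher and 0 lower, where a call means a p under 0.05 in edgeR's quasi-likelihood test after Benjamini-Hochberg adjustment over all 20373 IDs. Over all IDs tested, 18.4% were called higher and 34.4% were called in either direction. The members' median log2 fold change was 1.90, against 0.03 over all IDs. In 17 members every depleted library lay above every wild-type library, as in 24.8% of all IDs. The member with overlap was Solyc12g009200.2, and the other members that were not called were Solyc07g047850.3, Solyc12g011450.2 and Solyc07g022900.3, whose log2 fold changes lay between 0.58 and 1.18. Leaving out depleted replicate 6 gave 9 calls, and leaving out wild-type replicate 7 or 14 gave 8.

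Solyc03g005760.1 had the smallest p of the family under irrigation. It stood at 8066, 10876 and 8030 CPM in the depleted line, against 2703, 2194 and 1076 CPM in wild type (log2 fold change 2.17 ± 0.40, SE, edgeR adjusted p = 0.000697). Solyc05g056070.3 stood at 2945, 4796 and 3740 CPM in the depleted line, against 1176, 822 and 481 CPM in wild type (log2 fold change 2.21 ± 0.48, SE, edgeR adjusted p = 0.00227). For both members every depleted library lay far above every wild-type library, and neither lost its call under any alternative setting.

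The size of the difference varied widely between members. Solyc06g069730.3 had the largest log2 fold change under irrigation, with 302, 1466 and 1214 CPM in the depleted line and 26.3, 5.04 and 1.58 CPM in wild type (6.50 ± 1.95, SE, edgeR adjusted p = 0.0167). Its call was lost without wild-type replicate 7 or 14, and with the replicate number as a block in the fit. Solyc08g067320.2 followed, with 114, 330 and 294 CPM in the depleted line and 27.9, 4.02 and 2.43 CPM in wild type (4.42 ± 1.20, SE, edgeR adjusted p = 0.00945). The call of Solyc08g067320.2 was lost only with the replicate block. Both members had their lowest levels in wild-type replicates 7 and 14 and varied several-fold between replicates of either genotype. At the other end, Solyc07g047850.3, the member with the highest mean CPM, stood at 8505, 11097 and 9000 CPM in the depleted line and 7462, 7396 and 4252 CPM in wild type. The groups did not overlap, but the log2 fold change of 0.58 ± 0.34 was not called (SE, edgeR adjusted p = 0.201). Solyc10g006230.3 stood at 7195, 9357 and 7835 CPM in the depleted line, against 4159, 4038 and 2946 CPM in wild type (1.13 ± 0.40, SE, edgeR adjusted p = 0.0388). Its call was lost without any of 5 libraries, namely depleted replicates 6 and 7 and wild-type replicates 6, 7 and 14. It was also lost with no low-count filter and with the replicate block.

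At recovery 1 fewer members passed the test, all of them higher in the depleted line. There were 8 called higher and 0 called lower, where 9.92% of all IDs were called higher and 19.6% in either direction. The members' median log2 fold change was 1.52, against 0.00 over all IDs, and all 18 were positive. In 6 members the groups did not overlap, as in 16.8% of all IDs. Solyc03g005760.1 stood at 4176, 9515 and 6452 CPM in replicates 16, 17 and 12 of the depleted line, against 1358, 1351 and 1932 CPM in wild type (log2 fold change 2.12 ± 0.40, SE, edgeR adjusted p = 0.00212). Solyc03g005770.2 stood at 1922, 10613 and 6664 CPM in those depleted libraries, against 117, 365 and 407 CPM in wild type (4.43 ± 0.93, SE, edgeR adjusted p = 0.00394). In both, replicate 16 was the lowest depleted library and still lay above all 3 wild-type libraries.

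Replicate 16 was the lowest library of its group for all 18 members, and replicate 17 the highest for all 18, with no such count over all IDs. Without replicate 16 the count at recovery 1 was 16. Leaving out replicate 17 or 12 of the depleted line gave 2 and 4 calls, and leaving out replicate 1 or 13 of the wild type gave 2 and 3. Solyc03g005760.1 and Solyc03g005770.2 were the 2 members that kept their call under every alternative setting at this condition. Solyc06g069730.3 was at 2.67 CPM in replicate 16, against 821 and 313 CPM in replicates 17 and 12, and at 2.15, 10.5 and 10.9 CPM in wild type. Replicate 16 thus lay inside the wild-type range for this member, whose call (5.59 ± 1.88, SE, edgeR adjusted p = 0.0446) was lost without any 1 of the other 5 libraries, with no low-count filter and with these groups fitted alone.

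At recovery 2 the difference covered nearly all tested members. Of 18 members, 16 were called higher in the depleted line and 0 lower, where 14.9% of all IDs were called higher and 26.6% in either direction. All 18 members had every depleted library above every wild-type library, as did 25.5% of all IDs. The median log2 fold change was 2.47 for members and 0.02 for all IDs. Solyc03g005760.1 stood at 9004, 10798 and 5751 CPM in the depleted line, against 1244, 1201 and 851 CPM in wild type (2.95 ± 0.42, SE, edgeR adjusted p = 0.000160). Solyc03g005770.2 stood at 7223, 9157 and 3778 CPM in the depleted line, against 176, 144 and 80.1 CPM in wild type (5.66 ± 0.98, SE, edgeR adjusted p = 0.000777). For Solyc03g005770.2 even the lowest depleted library, replicate 8, exceeded the highest wild-type library many times over.

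Solyc07g047850.3 was called at recovery 2 only, as were Solyc12g011450.2 and Solyc07g022900.3. Solyc07g047850.3 stood at 11194, 13087 and 8595 CPM in the depleted line, against 4354, 3650 and 3197 CPM in wild type (1.55 ± 0.35, SE, edgeR adjusted p = 0.00415). Its call was lost with the replicate block (edgeR adjusted p = 0.0550). Its log2 fold change of 0.63 at recovery 1 was not called (edgeR adjusted p = 0.205). No member's genotype difference was shown to change between conditions, since the interactions of genotype with recovery called none of the 18 members. The smallest adjusted p of a member was 0.777 at recovery 1 and 0.243 at recovery 2 (edgeR), where 1.51% and 6.95% of all IDs were called. DESeq2 called 0 members. No member reached an unadjusted edgeR p under 0.05 (up to 2 under the alternatives), where 2432 and 4665 of all IDs did.

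Solyc06g069730.3 and Solyc12g009200.2 were the members not called at recovery 2. Solyc06g069730.3 stood at 80.5, 221 and 112 CPM in the depleted line, against 14.4, 2.12 and 1.09 CPM in wild type (4.54 ± 1.79, SE, edgeR adjusted p = 0.0686). Solyc12g009200.2 stood at 214, 241 and 269 CPM in the depleted line, against 186, 170 and 174 CPM in wild type (0.45 ± 0.52, SE, edgeR adjusted p = 0.545). It was the only member called in none of the 3 genotype comparisons, with log2 fold changes of 0.59, 0.78 and 0.45 in irrigated, recovery 1 and recovery 2 leaves.

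Across the 3 conditions, 7 members were called higher in the depleted line each time, where 5.40% of all IDs were. These were Solyc03g005760.1, Solyc03g005770.2, Solyc03g115900.3, Solyc05g056050.3, Solyc05g056070.3, Solyc07g063600.3 and Solyc12g006140.2. A further 7 members were called in 2 conditions and 3 in 1. These numbers rest on recovery 1, where 2 members were called without depleted replicate 17 or wild-type replicate 1. In 3 members, Solyc03g005760.1, Solyc03g005770.2 and Solyc07g063600.3, all 9 depleted libraries lay above all 9 unsprayed wild-type libraries, as in 4.89% of all IDs. Solyc07g063600.3 ranged from 641 to 4280 CPM in the depleted line (median 2343, n = 9) and from 88.4 to 623 CPM in wild type (median 215, n = 9). Without replicate 16, the same held for 17 of the 18 members, and for 6.85% of all IDs. The exception was Solyc12g009200.2.

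**Figure D2:**
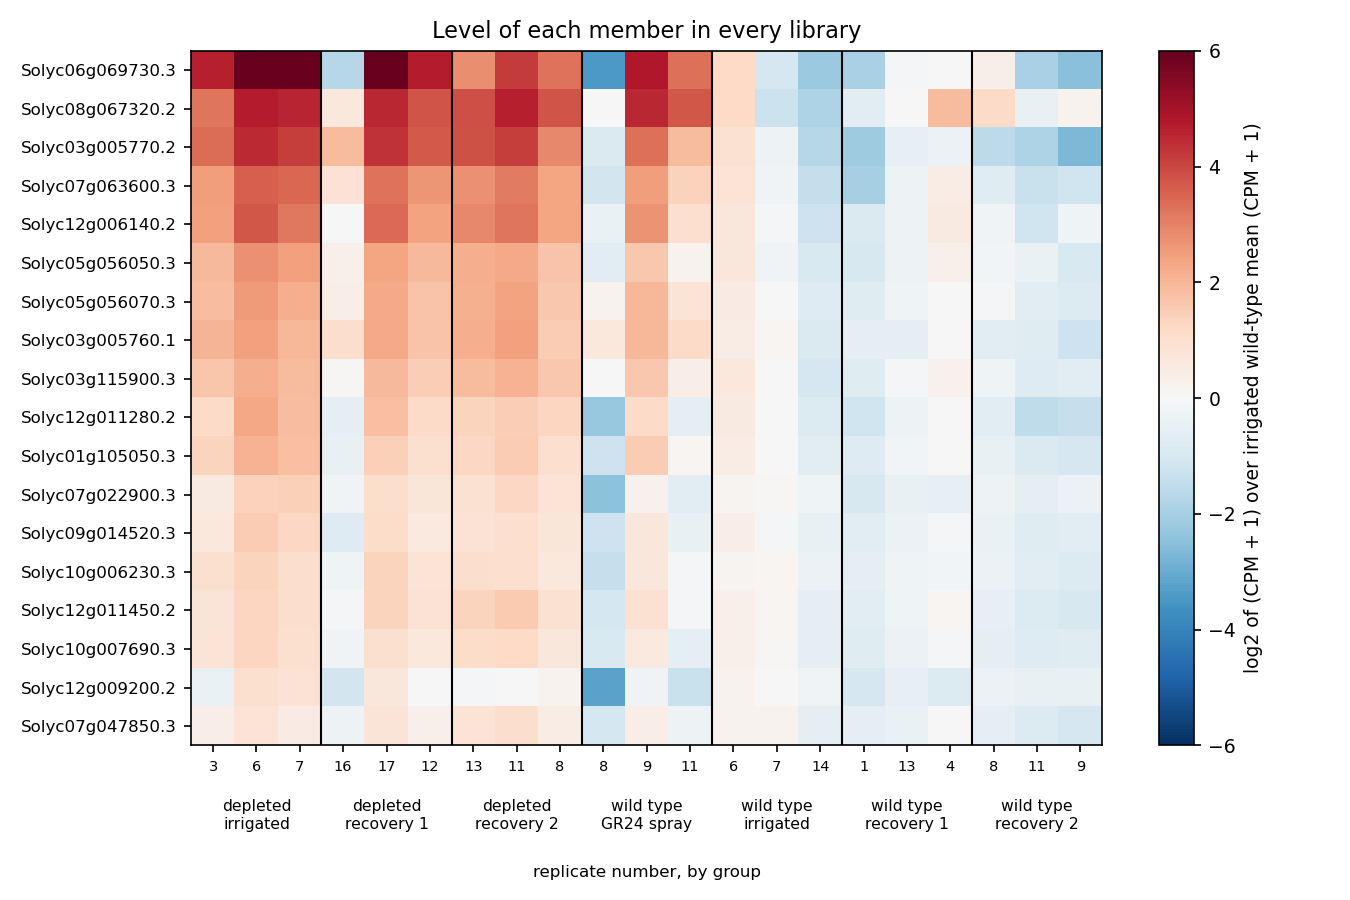
Each row is 1 of the 18 members and each column 1 library, and the colour gives log2(CPM + 1) relative to that of the member's mean in irrigated wild type, limited to 6 on either side. The columns of the depleted line stand higher in most rows, and replicate 16 of its recovery 1 group and sprayed replicate 8 stand apart from their groups.

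The members kept nearly the same order of fold changes in each condition. Between irrigation and recovery 1, the 18 log2 fold changes correlated with Pearson's r = 0.96 and Spearman's rho = 0.97. The values were 0.88 and 0.89 between irrigation and recovery 2, and 0.91 and 0.92 between the recoveries. Over all 20373 IDs, r was 0.76, 0.63 and 0.73 in the same order. These are descriptions across genes, which are not independent replicates, and the 3 comparisons have no library in common. Solyc06g069730.3, Solyc08g067320.2, Solyc03g005770.2, Solyc07g063600.3 and Solyc12g006140.2 held the first 5 places in each condition, in differing order.

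**Figure D3:**
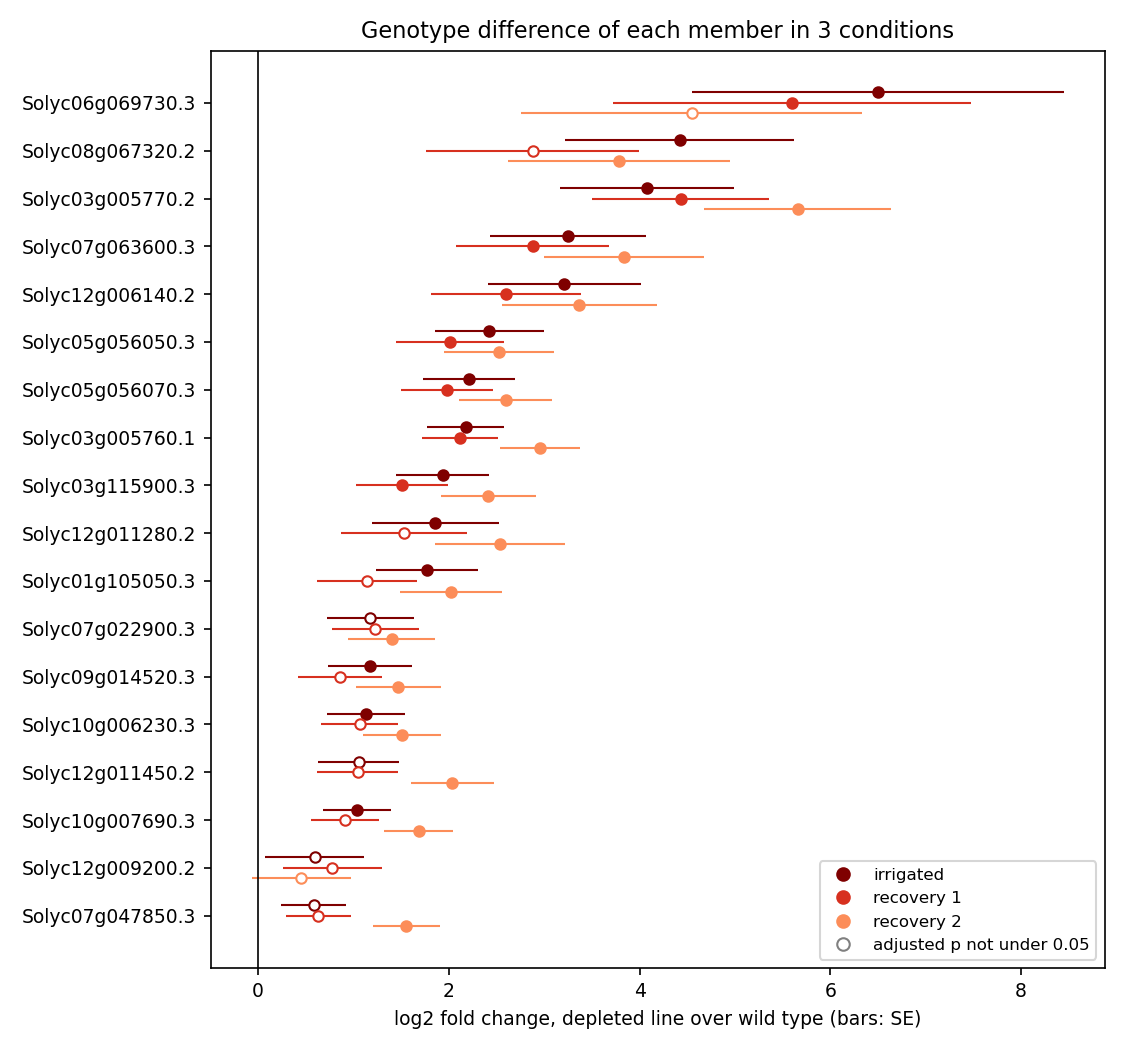
For each member the log2 fold change of the depleted line over wild type is plotted with its SE in irrigated, recovery 1 and recovery 2 leaves, filled where called and open where not. All points lie above 0, from 0.45 to 6.50.

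Because fold changes differed between members, the make-up of the family differed between genotypes as well. Solyc03g005770.2 supplied 7.09 to 12.9% of the family's counts in the 9 depleted libraries and 0.572 to 2.95% in the 9 unsprayed wild-type libraries. Solyc03g005760.1 supplied 10.5 to 16.0% in the depleted line and 6.08 to 8.32% in wild type. Solyc07g063600.3 and Solyc05g056070.3 were the other members whose share was higher in every depleted library. Shares were lower in every depleted library for 5 members, Solyc07g047850.3, Solyc09g014520.3, Solyc10g006230.3, Solyc10g007690.3 and Solyc12g011450.2. Solyc07g047850.3 supplied 11.6 to 19.8% in the depleted line and 22.5 to 27.1% in wild type. The shares of the other 9 members overlapped. A share falls when other members rise, and none of the 5 had a lower median CPM in the depleted line.

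Neighbouring loci were set side by side, because counts of close paralogs may share reads and how such reads were counted was not given in the sources used here. Solyc03g005760.1 and Solyc03g005770.2 have consecutive numbers. Within this pair, Solyc03g005770.2 held 31.5 to 53.5% of the counts in the depleted line (median 45.9%, n = 9) and 7.96 to 26.6% in unsprayed wild type (median 12.9%, n = 9), without overlap. In sprayed wild type it held 8.54, 39.3 and 30.2% in replicates 8, 9 and 11, so replicate 8 lay in the wild-type range, replicate 9 in that of the depleted line, and replicate 11 between them. The summed counts of the pair were higher in the depleted line by 2.82 ± 0.52 on the log2 scale under irrigation (SE, edgeR adjusted p = 0.000710), 2.83 ± 0.52 at recovery 1 (edgeR adjusted p = 0.00188) and 3.63 ± 0.54 at recovery 2 (edgeR adjusted p = 0.000254). The genotype calls of the pair's sum therefore do not depend on how reads were split between its members. The fold changes, calls and shares of the single members can depend on that split. The next loci given for the family, Solyc03g005780 and Solyc03g005790, were not analysed here, and whether their reads fell on the pair was not tested. With the spray the pair's sum was called higher than in irrigated wild type, by 1.59 ± 0.50 (SE, edgeR adjusted p = 0.0255). None of these sums was retested with single libraries left out.

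The pair Solyc05g056050.3 and Solyc05g056070.3 differed between genotypes in level but not in split. Solyc05g056070.3 held 63.4 to 69.5% of the pair's counts in the depleted line and 62.6 to 70.9% in unsprayed wild type, with medians of 66.6 and 68.4% (n = 9 each). In sprayed wild type it held 73.1 to 79.2% (n = 3), above all 18 other libraries. The summed counts of the pair were higher in the depleted line by 2.28 ± 0.51, 1.99 ± 0.50 and 2.57 ± 0.51 on the log2 scale in irrigated, recovery 1 and recovery 2 leaves (SE, edgeR adjusted p = 0.00259, 0.0115 and 0.00189). With the spray the sum differed by 1.05 ± 0.49 (SE, edgeR adjusted p = 0.117), which was not called. The sums of this pair were not retested with single libraries left out either. Taken singly, both members lost their recovery 1 call without depleted replicate 17 and without wild-type replicate 1.

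**Figure D4:**
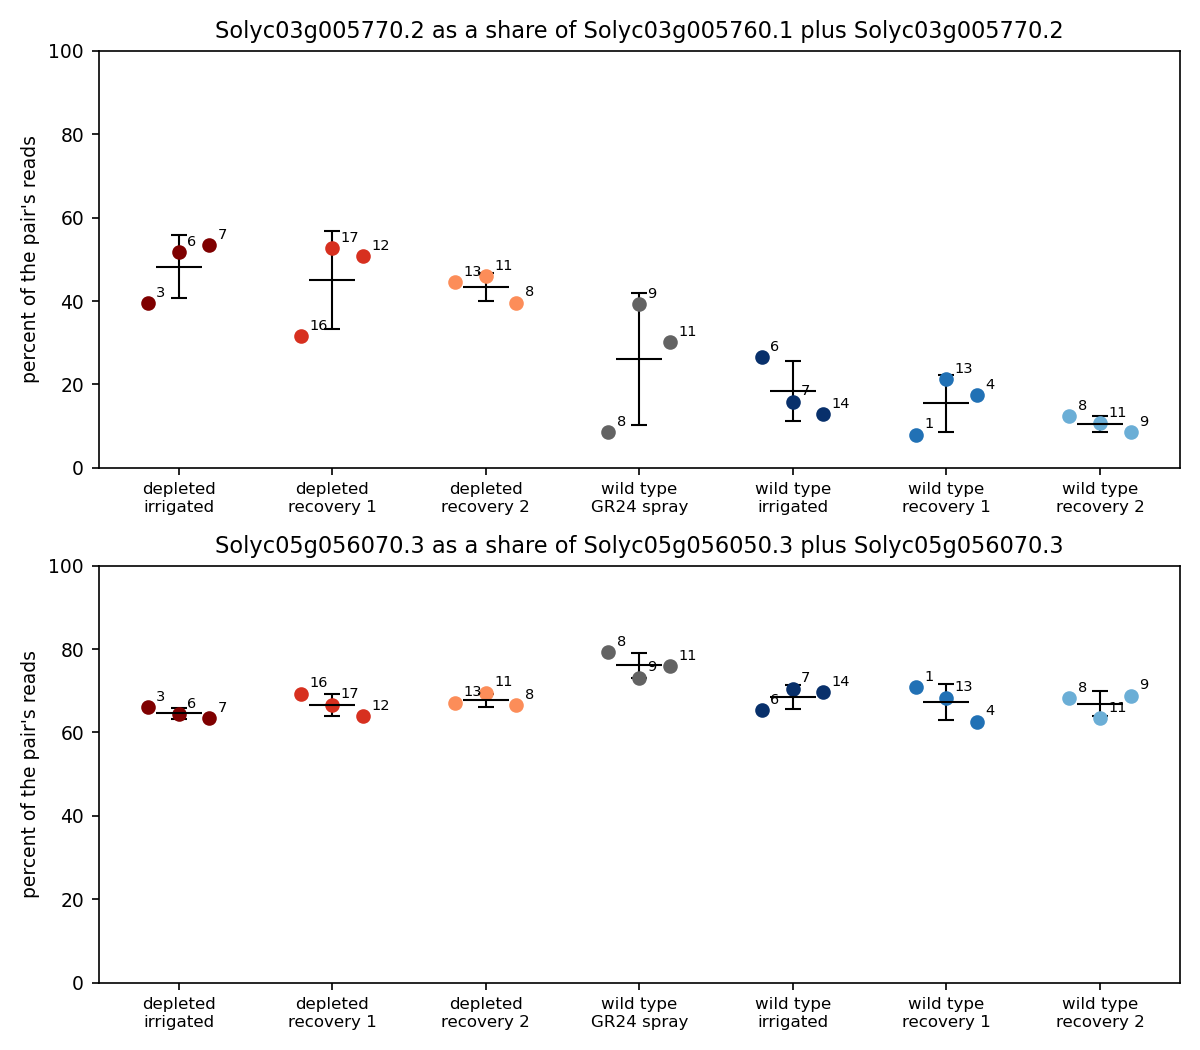
The share of the second locus in the summed counts of each neighbouring pair is plotted in percent for each library by group, with the mean and SD of each group. For the chromosome 3 pair the depleted line lies at 31.5 to 53.5% and unsprayed wild type at 7.96 to 26.6%, while for the chromosome 5 pair the sprayed libraries lie above all others.

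With the GR24 spray, few members passed the test and the replicates moved apart. Against irrigated wild type, 2 members were called higher and 0 lower, where 14.4% of all IDs were called higher and 27.8% in either direction. Fold changes were positive in 12 members and negative in 6, with a median of 0.62 against 0.07 over all IDs. The members' median was 1.03 without sprayed replicate 8 and −0.28 without sprayed replicate 9. In 1 member the groups did not overlap, with all sprayed libraries higher, as in 21.0% of all IDs. By DESeq2 5 members were called, all higher. The edgeR count was 6 without sprayed replicate 8, 1 without irrigated replicate 7 and 0 without irrigated replicate 14. Without sprayed replicate 9 the 2 called members were other ones and were lower with the spray.

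Solyc03g005760.1 was the member without overlap. It stood at 3071, 7806 and 4479 CPM in sprayed replicates 8, 9 and 11, against 2703, 2194 and 1076 CPM in irrigated wild type (log2 fold change 1.36 ± 0.39, SE, edgeR adjusted p = 0.0159). Without sprayed replicate 9 or irrigated replicate 14, or with these groups fitted alone, it was not called. Solyc08g067320.2 stood at 11.3, 286 and 162 CPM in the sprayed replicates, against 27.9, 4.02 and 2.43 CPM in irrigated wild type (3.74 ± 1.16, SE, edgeR adjusted p = 0.0242). Sprayed replicate 8 lay inside the irrigated range, and the call was lost without sprayed replicate 9 and without irrigated replicate 7 or 14, and with these groups fitted alone.

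Solyc03g005770.2 and Solyc06g069730.3 had large spray differences that were not called. Solyc03g005770.2 stood at 287, 5053 and 1938 CPM with spray, against 978, 415 and 159 CPM without it (2.23 ± 0.84, SE, edgeR adjusted p = 0.0573). Solyc06g069730.3 had 2 counts in sprayed replicate 8, under the floor of 3, and 337 and 118 CPM in replicates 9 and 11, against 26.3, 5.04 and 1.58 CPM without spray (3.79 ± 1.72, SE, edgeR adjusted p = 0.110). Solyc12g009200.2 and Solyc07g022900.3 had the lowest spray fold changes. Solyc12g009200.2 stood at 24.5, 202 and 94.2 CPM with spray and at 271, 235 and 201 CPM without it (−1.14 ± 0.53, SE, edgeR adjusted p = 0.115). Solyc07g022900.3 stood at 32.0, 218 and 117 CPM with spray and at 206, 192 and 154 CPM without it (−0.59 ± 0.45, SE, edgeR adjusted p = 0.348). Without sprayed replicate 9 these were the 2 members called, with log2 fold changes of −1.99 and −1.30 (edgeR adjusted p = 0.0120 and 0.0377).

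The 3 sprayed replicates kept the same order for every member. Replicate 9 was the highest and replicate 8 the lowest of the group for all 18 members. Replicate 8 lay below the irrigated wild-type range for 10 members and had the lowest value of all 21 libraries for 10. Replicate 9 lay above that range for 17 members and inside the range of the irrigated depleted line for 9. Replicate 11 lay above the irrigated wild-type range for 7 members, within it for 8 and below it for 3. These positions were counted for members only, so they have no background over all IDs beside them. The median coefficient of variation of the sprayed group was 77.3% over members and 24.6% over all IDs.

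This ordering of replicates over the family was seen in other groups too. In irrigated wild type, replicate 6 was the highest and replicate 14 the lowest for all 18 members, and the median coefficient of variation was 41.9% over members and 16.4% over all IDs. At recovery 1 of the depleted line it was 55.7% over members and 22.3% over all IDs. In the other 4 groups it was 19.9 to 28.1% over members and 15.2 to 21.8% over all IDs. After subtraction of group means of log2 CPM, pairs of members correlated over the 21 libraries with a median r of 0.92 (range 0.66 to 0.99, 153 pairs). Each member correlated with the log2 sum of the other 17 at r = 0.861 to 0.993, and 1.08% of the 20355 other IDs correlated with the family sum at or above the lowest of these values. The points share library, scaling and depth, and the r values are descriptions. In 6 of the 7 groups the 3 libraries had the same order in the family sum as along principal component 1 computed without the members, higher sums lying toward the depleted line's end, and wild type at recovery 1 was the exception. The part of what moves that component in the family's level was not tested.

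The members that moved most between replicates were largely the ones that differed most between genotypes. Per unit of log2 change in the other members, within groups, Solyc06g069730.3 changed by 4.14, Solyc08g067320.2 by 2.43 and Solyc03g005770.2 by 2.09. Solyc07g047850.3 changed by 0.70 and Solyc03g005760.1 by 0.77. Over the 18 members these slopes and the genotype fold changes correlated at r = 0.94 under irrigation, 0.90 at recovery 1 and 0.72 at recovery 2, with rho of 0.82, 0.78 and 0.69. Solyc03g005760.1 lay off this relation, with a slope among the lowest and a genotype log2 fold change of 2.12 to 2.95.

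The balance between members was also described in the sprayed leaves. A line of each member's log2(CPM + 1) on the log2 sum of the other 17 members was drawn through the 18 unsprayed libraries of both genotypes, and the sprayed libraries were set against it. In replicates 8, 9 and 11, 11, 2 and 8 of the 18 members lay farther from their line than any unsprayed library. Solyc07g022900.3 and Solyc10g007690.3 did so in all 3. Solyc12g009200.2 lay at −2.57, −0.38 and −1.04 from its line in replicates 8, 9 and 11, while no unsprayed library lay farther than 0.77 from it. Solyc07g022900.3 lay at −1.87, −0.54 and −0.68, with unsprayed libraries at up to 0.40, and Solyc10g007690.3 at −0.28, −0.19 and −0.55, with unsprayed libraries at up to 0.18. Solyc03g005760.1 lay above its line by 1.74, 0.33 and 0.98, with unsprayed libraries at up to 1.07. The lines were fitted to the unsprayed libraries, so the fit itself keeps the distances of these libraries small. No such count was made over all IDs, so the counts of members have no background beside them. These distances are descriptions, chosen after their values were seen.

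**Figure D5:**
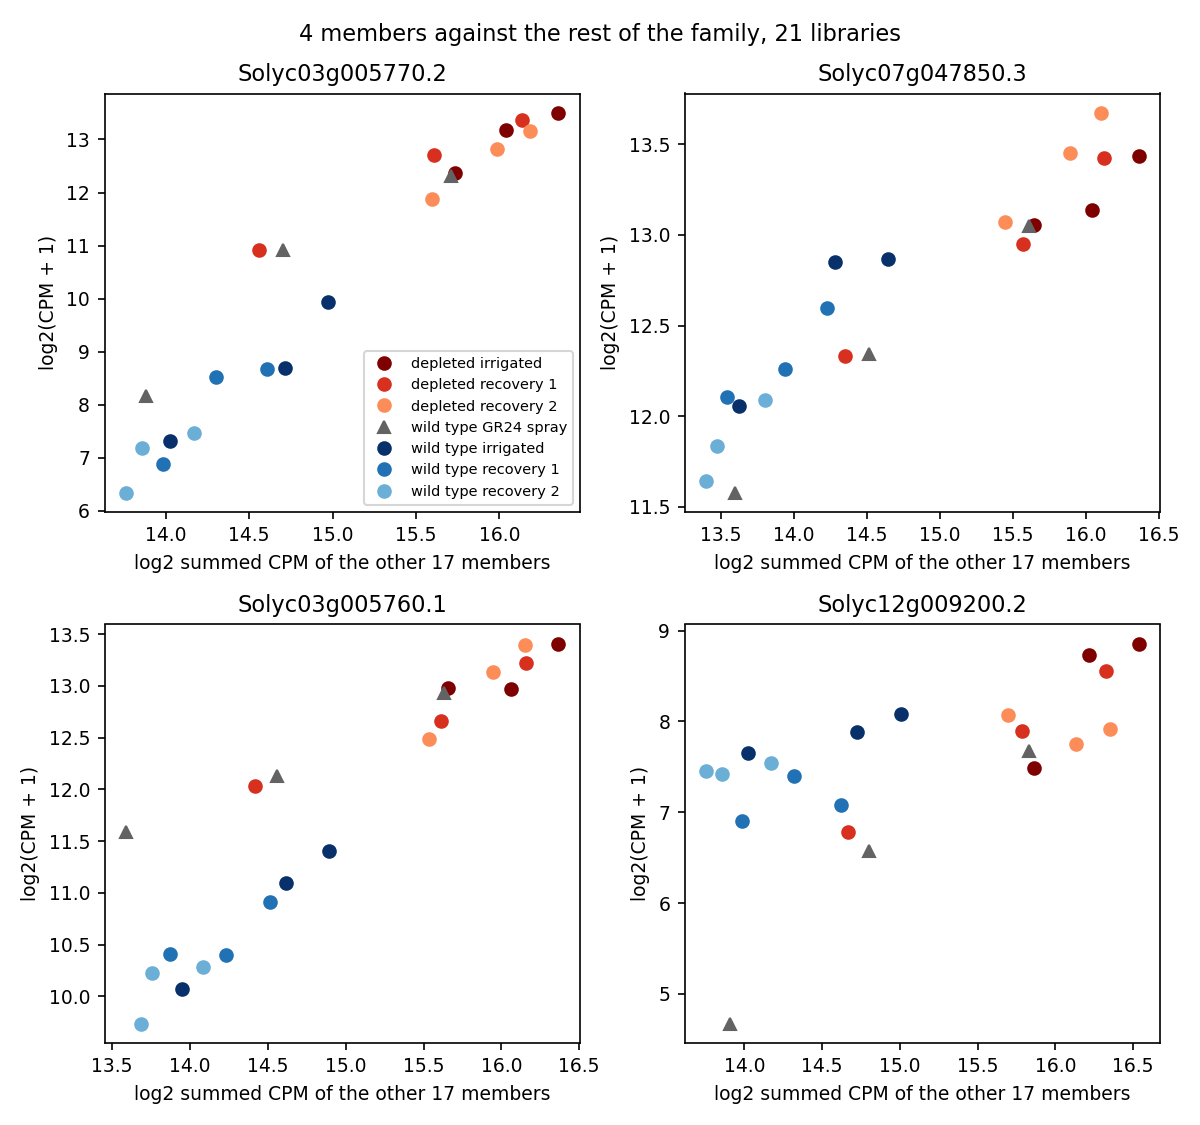
The log2(CPM + 1) of 4 members is plotted against the log2 summed CPM of the other 17 members, with 1 point per library, circles for unsprayed and triangles for sprayed libraries. Solyc03g005770.2 spans the widest range, Solyc07g047850.3 runs flatter, and the lowest sprayed library, replicate 8, lies above the points of like family sum for Solyc03g005760.1 and below all others for Solyc12g009200.2.

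Recovery from drought changed no member at the threshold in either genotype. In wild type the family sum averaged 25758 ± 8225 CPM under irrigation, 20756 ± 4526 CPM at recovery 1 and 15883 ± 2436 CPM at recovery 2 (SD, n = 3 each). Neighbouring groups in this series overlapped, and the lowest irrigated library, at 16879 CPM, lay below the highest recovery 2 library, at 18634 CPM. Of 18 members, 0 were called at recovery 1 against irrigation, at recovery 2 against irrigation, or between the recoveries, where 0%, 4.89% and 0.304% of all IDs were called by edgeR. The log2 fold change was negative in 17, 17 and 16 of the 18 members, with no such count over all IDs. Members varied together between replicates, so these counts are not of independent values. The median log2 fold changes of the members were −0.32, −0.63 and −0.40, against 0.02, −0.04 and −0.04 over all IDs. The smallest adjusted p of a member was 0.815, 0.161 and 0.526 (edgeR). Leaving out single libraries moved the members' medians to between −0.56 and −0.02, −0.87 and −0.37, and −0.60 and −0.15. The values nearest 0 came without irrigated replicate 6 for the first 2 and without recovery 1 replicate 4 for the last. An unadjusted edgeR p under 0.05 was reached by 0, 3 and 0 members, where 1380, 5000 and 2895 of all IDs reached it. With the compared groups fitted alone it was reached by 2, 11 and 2 members, with no count over all IDs for those fits. DESeq2 called 0 in each. At recovery 2 against irrigation, between 0 and 5 members had an unadjusted edgeR p under 0.05 with single libraries left out.

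In the depleted line the family sum averaged 77243 ± 17774 CPM under irrigation, 55083 ± 28293 CPM at recovery 1 and 69692 ± 15346 CPM at recovery 2 (SD, n = 3 each), with overlap between all 3 groups. The differences between the means of the log2 sums were −0.61 at recovery 1 and −0.15 at recovery 2 against irrigation, and 0.47 between the recoveries. Without recovery 1 replicate 16 the first was −0.15 and the last 0.00, and without recovery 1 replicate 17 they were −0.98 and 0.84. The second was 0.02 without irrigated replicate 6 and 0.04 without recovery 2 replicate 8. No member was called by edgeR at recovery 1 or 2 against irrigation or between the recoveries, where 8.41%, 10.4% and 0% of all IDs were called. The median log2 fold changes of the members were −0.56, −0.26 and 0.37, against 0.01, −0.02 and −0.01 over all IDs. The smallest adjusted p of a member was 0.295, 0.286 and 0.715 (edgeR), and DESeq2 called 0 in each. No member reached an unadjusted edgeR p under 0.05, where 4940, 5411 and 1749 of all IDs did. Without recovery 1 replicate 16 the first median was −0.21 and the last −0.03, so the direction between the recoveries turned, and without replicate 17 they were −1.03 and 0.75. The second median was −0.08 without irrigated replicate 6 and −0.50 without irrigated replicate 3. Without replicate 17, 2 members reached an unadjusted edgeR p under 0.05 at recovery 1, with no count over all IDs for that fit. Solyc06g069730.3 was the member with the largest fold change at recovery 2 against irrigation, at 80.5, 221 and 112 CPM after 2 droughts and 302, 1466 and 1214 CPM under irrigation (−2.85 ± 1.64, SE, edgeR adjusted p = 0.286). Its groups did not overlap, and fitted with these 2 groups alone it was called (edgeR adjusted p = 0.0463).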

How the data were processed

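Leaf RNA was sequenced as paired ends from 21 libraries made with a NEBNext Ultra RNA kit from 1 µg of total RNA, per the labels' protocols. The kit marks no strand, so overlapping antisense genes cannot be told apart. HISAT2, an aligner, and HTSeq, a counter, are named in the submitters' processing notes, with no version, and no genome build was given in the sources used here. In the deposited table the authors gave raw whole-number counts per ID, and 6 of its columns that match no sample were not used. Of its IDs, 9577 had no count, and 0 of 35039 matched the 41476 genes of a RefSeq table (assembly SLM_r2.1), so no names, coordinates, sequences or further pathway genes are given.

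Groups and replicate numbers come from the titles. In R 4.3.3, edgeR 4.0.16 (filterByExpr, TMM factors, robust glmQLFit and glmQLFTest) was fitted once to all 21 libraries with 1 mean per group and 14 residual degrees of freedom, giving 10 comparisons and 2 interactions with Benjamini-Hochberg adjustment over 20373 IDs. Neighbours are loci of 1 chromosome within 50 in number. Correlations used log2(CPM + 1), and principal components a prior count of 2. Replicate pairs gave a chi-square of 28.9 to 334 per degree of freedom, so none was treated as 1 library. The floor covers counting error only. The members, lists and rules were chosen with earlier results of these data known. Library values are printed for the 3 members of highest mean CPM and, per comparison with calls, for up to 2 higher and 2 lower members of smallest p, and further members were chosen after their values were seen. Alternatives were DESeq2 1.42.0, upper-quartile factors, factors without the family, no low-count filter, neighbouring members summed, the compared groups alone, a replicate block, and each library left out.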

Additional observations from a re-analysis of the deposited data

How the results depend on the processing

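For the family sum the alternatives were other scaling factors and leaving out each library. The 3 genotype differences stayed positive under all of them, at 1.33 to 1.82 under irrigation, 0.91 to 1.74 at recovery 1 and 1.97 to 2.30 at recovery 2. The spray difference ranged from −0.24 to 0.72 and that of recovery 2 against irrigation in the depleted line from −0.32 to 0.04, so neither has a stable direction. Counts of called members under irrigation and at recovery 2 were within 1.5 times the reported 14 and 16 with DESeq2, with other scaling factors, without the low-count filter and with the compared groups fitted alone. At recovery 1 the reported 8 became 14 with DESeq2 and 5 with the compared groups alone. For the spray the reported 2 became 5 with DESeq2 and 0 with the groups alone, and recovery 2 against irrigation in the depleted line then had 1 call, which was lower. With the replicate number as a block the count was 5 under irrigation and 9 at recovery 2, on 4 residual degrees of freedom. To look for pairing, each group's mean log2 CPM was subtracted per ID, and the remaining deviations were correlated between depleted and wild-type libraries. Deviations of same-numbered libraries correlated at 0.065 and −0.045 under irrigation and at 0.024 and −0.015 at recovery 2. Those of different-numbered libraries ranged from −0.18 to 0.20, so these few values cannot settle whether the numbers pair libraries. The labels state no such pairing. Leaving out 1 library at a time gave 8 to 15 under irrigation, 2 to 16 at recovery 1, 11 to 16 at recovery 2, 0 to 6 for the spray, and 0 in each recovery comparison and interaction. Without sprayed replicate 9, 2 members were called and both were lower. Where an arm held 2 libraries the spread was pooled over all groups. Under all alternatives together, 5 of 14 calls held under irrigation, 2 of 8 at recovery 1, 9 of 16 at recovery 2 and 0 of 2 for the spray, and none changed direction. The causes were not tested. Depth set the floor of 3 counts at 0.0847 to 0.156 CPM, and Solyc06g069730.3 in sprayed replicate 8 lay under it.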
